A study of Mus musculus with 2 samples.

Results

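The expression of 7 genes known as effectors of synaptic plasticity was described over the brain regions of 2 coronal mouse brain sections. The genes were the pentraxins Nptx1, Nptx2 and Nptxr, together with Rgs2, Rheb, Ptgs2 and Pcdh8. They were taken by symbol from the 32285 genes of the count matrices, and each symbol matched 1 gene. Expression was measured with Visium, a method that lays tissue on barcoded capture areas (spots) of 55 µm and keeps the position of each captured polyadenylated RNA. One section came from a mouse trained in active place avoidance, in which the animal learns to keep out of a shock zone on a rotating arena. The other came from an untrained mouse, which walked the arena while the shock stayed off. Both were male adults of 3 to 4 months with the genotype ArcCreERT2::eYFPflx on a C57BL/6 background, so the Arc-driven recombinase allele was carried by the control as well. Brains had been taken 60 min after a memory retention test, and sections of 10 µm were cut at the level of the dorsal hippocampus.

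Each group held 1 section of 1 mouse (n = 1 per group). Label, animal, section and library therefore changed together and cannot be told apart, and no p-value was derived from spots. Directions follow the labels as deposited. The text of the study may use these labels the other way round, in which case every direction between trained and untrained given here would turn. Among hippocampal spots, at least 1 UMI of the activity-regulated genes Egr1 and Jun was found in 255 and 181 of 582 spots in the section labelled trained, and in 393 and 319 of 568 in the section labelled untrained. Arc was found in 209 and 349 of them. All 3 genes were thus found in more spots under the label untrained, in the deeper of the libraries. The paper reports each of them in more spots of the trained animal. Its counts for Egr1 and Jun lie near those found here under the opposite label, whereas its counts for Arc do not. Its number of untrained hippocampal spots is the same 568 as found here under that label. The counts do not settle which use of the labels is right. The former section gave 29515831 unique molecular identifiers (UMIs, each marking 1 captured RNA molecule) over 4152 spots, and the latter gave 59029131 UMIs over 3738 spots. Medians under the labels trained and untrained were 5950.5 and 13766.5 UMIs per spot. In the hippocampus the medians were 5315 and 16753.5 UMIs over 582 and 568 spots. Intervals are 95% intervals and cover counting error only. A spot can hold several cells, so fewer cells of a type and less RNA per cell cannot be told apart.

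The pentraxins are secreted or membrane-anchored proteins of excitatory synapses. Nptx1 and Nptx2 (also named Narp) are released by neurons and gather AMPA-type glutamate receptors at synapses, and Nptxr is the membrane-bound member that joins them in mixed complexes. Rgs2 shortens signalling through Gq proteins by speeding up their GTP hydrolysis. Rheb is the small GTPase that switches on the growth kinase complex mTORC1. Ptgs2 encodes cyclooxygenase-2, the inducible enzyme of prostaglandin synthesis. Pcdh8, also called arcadlin, is a protocadherin that drives N-cadherin away from the synaptic membrane. Nptx2, Rgs2, Rheb, Ptgs2 and Pcdh8 are known for transcription that rises within hours of strong neuronal activity.

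The genes lie on 5 chromosomes of the GRCm38/mm10 build (GENCODE vM21). Rgs2 (ENSMUSG00000026360, chr1:143999338-144004161, minus strand, 5 exons) and Ptgs2 (ENSMUSG00000032487, chr1:150100031-150108227, plus strand, 10 exons) share chromosome 1. Rheb (ENSMUSG00000028945, chr5:24802823-24842624, minus strand, 8 exons) and Nptx2 (ENSMUSG00000059991, chr5:144545902-144557478, plus strand, 5 exons) share chromosome 5. Nptx1 (ENSMUSG00000025582) occupies chr11:119538719-119547753 on the minus strand with 5 exons, Pcdh8 (ENSMUSG00000036422) occupies chr14:79766775-79771312 on the minus strand with 3 exons, and Nptxr (ENSMUSG00000022421) occupies chr15:79786351-79804766 on the minus strand with 5 exons. The gene Npcd overlaps Nptxr on the same strand, and the small RNA gene Gm25363 lies within Rheb. Neither has a row in the count matrix. The antisense gene Gm9748 overlaps Pcdh8 and had 20 and 34 UMIs in the sections labelled trained and untrained, against 1158 and 2403 UMIs of Pcdh8.

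RefSeq promoter sequences (GRCm38.p6, 250 bases before to 50 bases after the start) were at hand for 4 of the 7 genes, Rgs2, Rheb, Ptgs2 and Pcdh8. They were searched for letters of elements that are known from activity-regulated promoters. The half-site of the cyclic AMP response element, TGACG on either strand, was present in the windows of Rgs2, Rheb and Ptgs2, and in 20.8% of all 32851 promoters. The whole element TGACGTCA was in none of the 4 windows and in 1.79% of all promoters. The E-box CACGTG was found in the windows of Rheb and Ptgs2 and in 7.15% of all promoters on either strand. TATAAA on the given strand was found only for Pcdh8 among the 4, and in 8.32% of all promoters. The stretches of 30 bases around the half-sites, and around TATAAA for Pcdh8, are shown to place these letters, which are set in capitals. A match of letters is no evidence of binding. The coordinates, in the order of the lines, are chr1:144004317-144004346, chr1:144004199-144004228, chr5:24842582-24842611, chr1:150100032-150100061 and chr14:79771325-79771354, and each sequence is written 5′ to 3′ along the strand of its gene.
Rgs2, 185 bases before the start: atgcggcgcctaCGTCAacagcgccctcgc
Rgs2, 67 bases before the start: ttggggcgtggcTGACGcctccaggtcccg
Rheb, 247 bases before the start: tcaTGACGcagcgagtttcggtcgtgactt
Ptgs2, at base 14 after the start: gagtcaccactaCGTCAcgtggagtccgct
Pcdh8, 30 bases before the start: catatcggcagcTATAAAgacggaggcggc
In Ptgs2 the half-site overlaps the E-box. The Rheb stretch lies before the RefSeq start but inside the gene as GENCODE draws it.

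Spots of both sections were clustered together into 20 regions without the 7 genes, so that their levels played no part in the outlines. Clusters were named from marker genes, for instance CA1, CA3 with CA2 (CA3/CA2 below), dentate granule cells (DG), hippocampal neuropil, habenula or striatum. Clusters with the same name are told apart by their leading gene or their number, and 3 clusters without a fitting marker set keep a number alone. Levels are given in CPM, the UMIs of a gene per 1000000 UMIs pooled over the spots of a region. The sections did not hold the same tissue. Striatum had 211 and 26 spots in the sections labelled trained and untrained, choroid plexus had 41 and 137, and cluster 16, at the lower lateral edge and led by Cartpt, Vgll3 and Ecel1, had 20 and 190. In cluster 16 the choroid plexus markers summed to 68345.3 and 13065.3 CPM, and 8 of 8 white matter markers were higher under the label trained. At a finer clustering (resolution 2.0) the cluster led by Vgll3 held 0 and 130 spots. Values of cluster 16 under the 2 labels may therefore not describe the same tissue. Choroid plexus RNA was also unequal within the hippocampus. The 7 choroid plexus markers summed to 992 and 4556.1 CPM there, with 0 of 7 higher under the label trained, and the part of this in the results below was not tested.

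**Figure D1:**
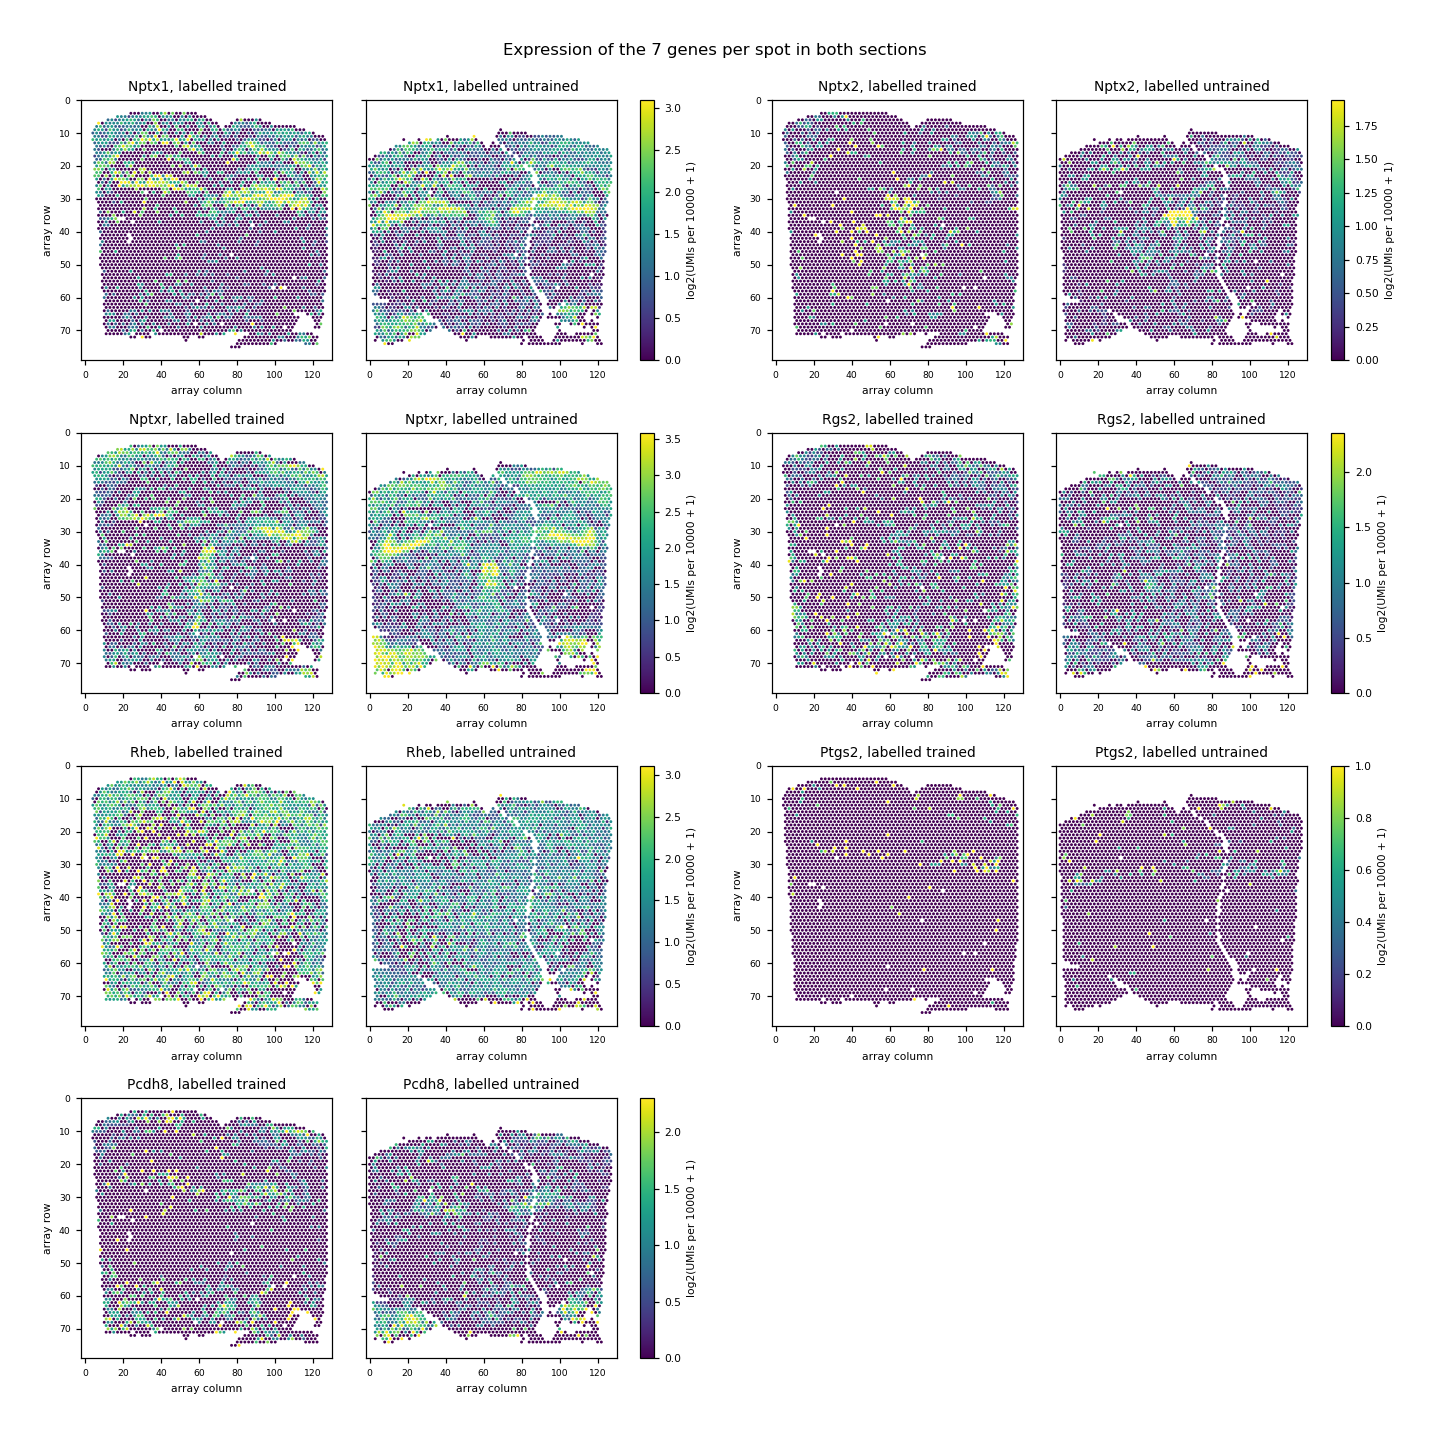
Maps of the 7 genes over the sections labelled trained (left of each pair) and untrained (right), as log2 of UMIs per 10000 UMIs of the spot plus 1, with array column and row as axes and 1 point per spot of at least 500 UMIs. Nptx1, Nptxr and, sparsely, Ptgs2 mark the arch of the hippocampal cell layers, Nptx2 the habenula at the midline, Pcdh8 the dentate gyrus and the lower edge, and Rheb has no region without signal.

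Nptx1 was highest in CA3/CA2 and DG in both sections. Under the label trained it reached 463 CPM in CA3/CA2 (interval 426 to 501, 599 UMIs), 453 CPM in DG (416 to 492) and 353 CPM in deep layer cortex (327 to 380). Under the label untrained the levels were 462 CPM (440 to 485, 1631 UMIs), 419 CPM (398 to 441) and 291 CPM (269 to 313). Intervals of CA3/CA2 and DG overlapped in each section, while deep layer cortex lay below them. CA1 was much lower, at 149 CPM (127 to 175) and 195 CPM (178 to 214), and hippocampal neuropil held 125 and 129 CPM. White matter, which should hold few neuronal cell bodies, gave 60.4 and 57.8 CPM. Choroid plexus held 51 and 28.6 CPM.

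Nptx2 had its peak outside the hippocampus. The habenula, a midline nucleus that relays aversive signals to monoamine neurons, held 168 CPM (130 to 213, 68 UMIs) and 169 CPM (148 to 192, 237 UMIs) in the sections labelled trained and untrained. These values overlapped each other and lay above the intervals of all other regions of their section. The next regions were the Ctxn3-led thalamus at 50.1 CPM (41.8 to 59.7) under the label trained and deep layer cortex at 59.1 CPM (49.6 to 69.8) under the label untrained. Within the hippocampus Nptx2 was highest in CA1, at 47.6 CPM (35.3 to 62.7) and 52.4 CPM (43.6 to 62.4). CA3/CA2 held 25.5 CPM (17.5 to 35.8) and 30 CPM, and DG 15.6 and 23.7 CPM. CA1, low for Nptx1, thus led the hippocampal layers for Nptx2. The interval of CA1 lay above that of DG in both sections, whereas it met that of CA3/CA2 under the label trained, and the intervals of CA3/CA2 and DG overlapped in each section.

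Nptxr shared the CA3/CA2 peak of Nptx1. It reached 582 CPM (541 to 625, 753 UMIs) and 803 CPM (774 to 834, 2835 UMIs) there. Upper layer cortex followed under the label trained with 359 CPM (338 to 381), and under the label untrained it held 465 CPM (446 to 484) behind cluster 16 with 584 CPM (561 to 608). DG held 252 CPM (224 to 281) and 381 CPM (361 to 402), and CA1 held 135 and 226 CPM. The Ctxn3-led thalamus, with 198 CPM (181 to 216) and 273 CPM (258 to 288), stood above the Prkcd-led relay thalamus, which held 58.1 and 104 CPM. The region named meninges, at 230 and 191 CPM over 205 and 212 spots, was not a low region for Nptxr, and white matter gave 60.4 and 93.9 CPM. At a finer clustering (resolution 2.0) the meninges held 105 and 123 spots. An unnamed cluster of 113 and 92 spots, led by Vip and Reln, then scored 1.16 for meninges and 1.10 for upper layer cortex markers. Cortical spots may thus be part of the region named meninges, and their part in its Nptxr was not tested. Cluster 16 of the section labelled trained, with its 20 spots, held 4 UMIs of Nptxr (26.6 CPM).

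Pcdh8 was highest in DG and in cluster 16. In DG it reached 141 CPM (121 to 164, 172 UMIs) and 120 CPM (109 to 132, 432 UMIs), against 66.4 CPM (53.1 to 82) and 54.4 CPM (47 to 62.7) in CA3/CA2 and 24.7 and 28.3 CPM in CA1. The order DG, CA3/CA2, CA1 held in both sections with no overlap of intervals. Cluster 16 held 164 CPM (152 to 177, 672 UMIs) under the label untrained, where Pcdh8 was also among the leading genes of the cluster. The 20 spots of cluster 16 under the label trained held 59.9 CPM (27.4 to 114, 9 UMIs). Striatum held 98.7 CPM (61.1 to 151, 21 UMIs) under the label untrained, an interval that overlapped that of DG, but 22.6 CPM (16.7 to 29.9, 49 UMIs) under the label trained. The hypothalamic clusters led by Pmch and Oxt were among the higher regions under the label trained, at 65.3 and 61.3 CPM, but held only 30.7 and 36.7 CPM under the label untrained. Deep layer cortex was low in each section, at 9.65 and 10.3 CPM, in contrast with upper layer cortex at 57 and 38.9 CPM.

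Ptgs2 was sparse, with 133 and 212 UMIs over the whole sections, of which 71 and 127 lay in the hippocampus. CA3/CA2 held 44 and 71 of them, which gave 34 CPM (24.7 to 45.6) and 20.1 CPM (15.7 to 25.4). DG followed with 19.7 CPM (12.6 to 29.3, 24 UMIs) and 10.3 CPM (7.26 to 14.2, 37 UMIs), and upper layer cortex with 9.93 CPM (6.75 to 14.1) and 5.76 CPM (3.83 to 8.32). In CA1 there were 2 and 11 UMIs. Under the label trained no UMI of Ptgs2 was found in 7 regions, among them habenula, choroid plexus and the Prkcd-led thalamus, with upper bounds of 9.1, 7.84 and 2.02 CPM. The region named meninges, which may hold cortical spots as well, had 5.24 CPM (1.92 to 11.4, 6 UMIs) and 4.57 CPM (2.28 to 8.17, 11 UMIs).

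Rgs2 was highest in striatum, at 124 CPM (109 to 139, 268 UMIs) under the label trained. The 26 striatal spots of the section labelled untrained held 75.2 CPM (43 to 122, 16 UMIs), an interval that overlapped those of the next regions. The Oxt-led hypothalamus followed under the label trained with 95.8 CPM (82.2 to 111), an interval that met that of striatum, and upper layer cortex held 67.6 and 57.8 CPM in the 2 sections. In the hippocampus Rgs2 was higher in DG (52.4 and 44.6 CPM) and CA1 (45.7 and 48.1 CPM) than in CA3/CA2 (30.9 and 28.3 CPM), with overlapping intervals under the label trained. White matter gave 23.2 and 29.4 CPM.

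Rheb was present everywhere. Its highest region, CA1, held 314 CPM (281 to 350) and 188 CPM (171 to 206). These were 2.02-fold and 2.07-fold the lowest regions, white matter at 156 CPM under the label trained and choroid plexus at 90.9 CPM under the label untrained. The interval of CA1 overlapped that of deep layer cortex in each section, at 285 CPM (262 to 310) and 167 CPM (150 to 184).

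**Figure D2:**
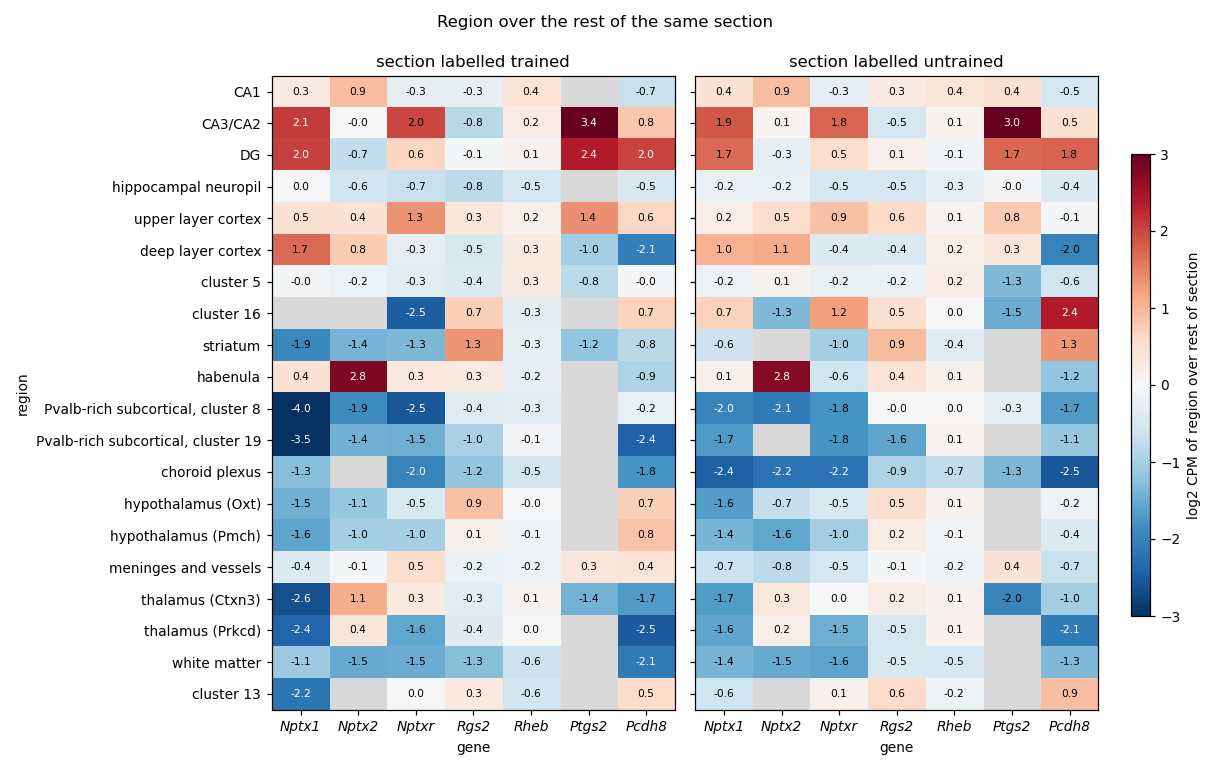
Log2 ratio of the pooled CPM of each region (rows) over the rest of the same section for the 7 genes (columns), with the sections labelled trained and untrained in separate panels and cells of 3 UMIs or fewer left grey. Nptx2 stands at 2.81 and 2.76 in the habenula, Nptx1 at 2.09 and 1.86 in CA3/CA2, and the column of Rheb is the palest.

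Set against the rest of the section, several of these peaks passed a log2 ratio of 1, which was used as the limit for a region. Counts beside a share of all genes were made for 6 of the 20 regions, namely CA3/CA2, DG, CA1, upper layer cortex, habenula and cluster 16. Ptgs2 could not be counted under the label trained, since it had fewer than the 200 UMIs in the section that were asked for. In CA3/CA2, 2 of 6 genes passed under the label trained (Nptx1 and Nptxr), where 3.4% of the 10565 genes tested did so, and 3 of 7 passed under the label untrained (with Ptgs2 added), against 2.67% of 12077 genes. Log2 ratios there were 2.09 and 1.86 for Nptx1 and 2.00 and 1.75 for Nptxr. In DG, Nptx1 and Pcdh8 made 2 of 6 against 7.83% of all genes, and with Ptgs2 they made 3 of 7 against 4.93%. Ptgs2 reached the minimum under the label untrained only through its UMIs in CA3/CA2 and DG, so nothing is read from its count, and without it 2 of 6 genes passed in each of these regions. CA1 had 0 of 6 against 5.42% and 0 of 7 against 4.41%, with Nptx2 just below the limit at 0.93 in both sections.

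Outside the hippocampus, Nptx2 passed in the habenula, where it made 1 of 6 against 7.6% of all genes and 1 of 7 against 4.78%, with log2 ratios of 2.81 (2.42 to 3.16) and 2.76 (2.55 to 2.95). In upper layer cortex, Nptxr alone passed under the label trained, 1 of 6 against 2.76%, at 1.34 (1.24 to 1.44). Under the label untrained 0 of 7 passed against 2.72%, and Nptxr held 0.87 (0.80 to 0.93). Cluster 16 had 0 of 6 against 7.17% under the label trained and 2 of 7 (Nptxr at 1.23 and Pcdh8 at 2.38) against 2.1% under the label untrained. Its spots differed in their markers between sections, so these counts are not compared with each other. Outside these 6 regions, other values past 1 on more than 3 UMIs were those of Nptx1 in deep layer cortex (1.71 and 1.04), of Nptx2 in the Ctxn3-led thalamus under the label trained (1.08) and in deep layer cortex under the label untrained (1.12), of Rgs2 in striatum under the label trained (1.33) and of Pcdh8 in striatum under the label untrained (1.32). Each background share is over the genes with enough UMIs in that section and describes 1 section.

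**Figure D3:**
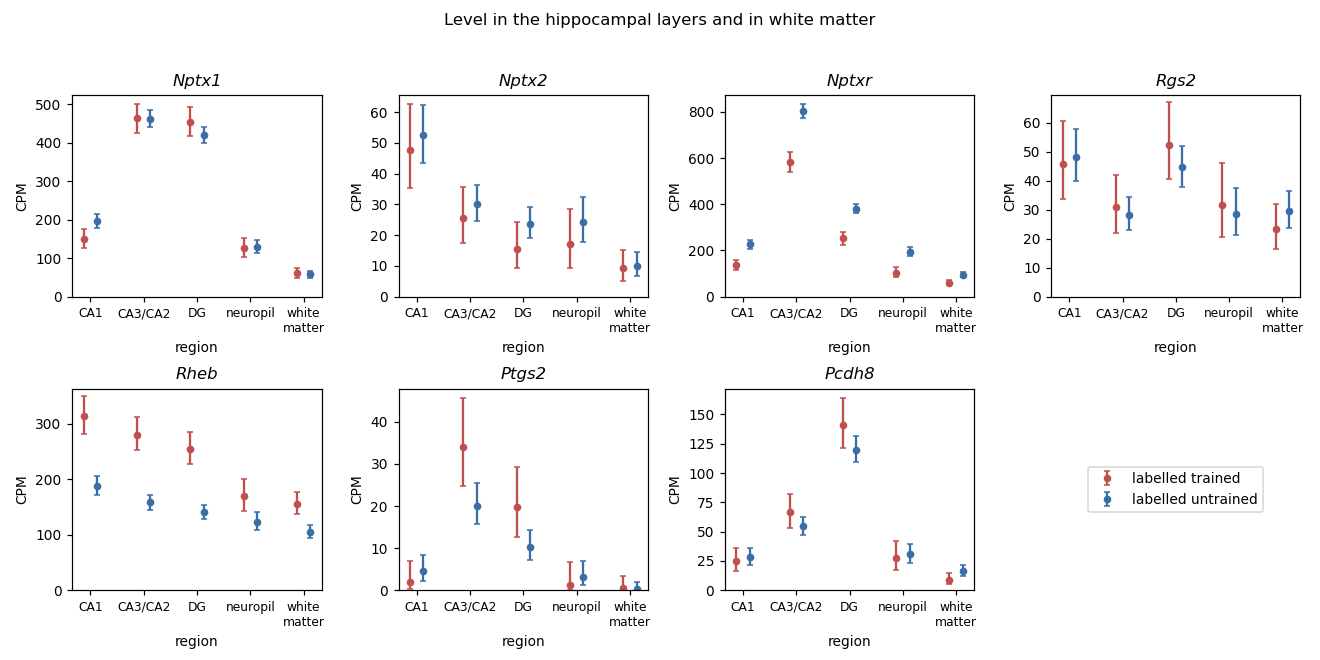
Levels in CPM of the 7 genes in CA1, CA3/CA2, DG, hippocampal neuropil and white matter of the sections labelled trained and untrained, with bars for the 95% Poisson intervals, which cover counting error only. Nptx1, Nptxr and Ptgs2 are highest in CA3/CA2, Pcdh8 in DG and Nptx2 in CA1, in both sections.

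The regional patterns were alike in the 2 sections. Across the 20 regions, Pearson's r of log2(CPM + 1) between sections ran from 0.64 for Nptxr to 0.86 for Rgs2. These points share libraries and outlines and are a description only. Among named regions the leading one was the same in both sections for 7 of 7 genes. Over all 20 regions Pcdh8 differed, led by DG under the label trained and by cluster 16 under the label untrained. Between genes, Nptx1 and Nptxr went together most closely of the pentraxins, at r = 0.72 and 0.80 under the labels trained and untrained. Nptx1 and Nptx2 stood at 0.49 and 0.45, and Nptx2 and Nptxr at 0.58 and 0.40. The values for Nptx2 and Pcdh8 were below 0, at -0.09 and -0.24.

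Of 8410 genes compared over the 20 regions, those most like each gene in both sections were ranked by the lower of the 2 correlations. Nptx1 was followed by Neurod2 (0.903 and 0.914), a transcription factor of excitatory forebrain neurons, and Enc1 (0.895 and 0.866) was also among its nearest. Nptx2 was nearest to Plch2 (0.807 and 0.872), Ap3s1 and Stt3b, and Nptxr to Coro1a (0.831 and 0.812), Sidt1 and Cpt1c. Rheb had the highest values of the 7 beside Nptx1, with Mllt11 (0.925 and 0.890), Stk25 and Dnaja1. Rgs2 was nearest to Tmem158 (0.751 and 0.734), Tceal9 and Pnck, Pcdh8 to Vstm2a (0.735 and 0.817), Unc5d and Pnck, and Ptgs2 to Banp (0.805 and 0.780), Gm45716 and Arhgef25.

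Moran's I, which is near 0 where neighbouring spots are no more alike than distant ones and rises toward 1 as they become alike, was 0.431 and 0.473 for Nptx1, 0.311 and 0.48 for Nptxr, 0.167 and 0.283 for Pcdh8 and 0.149 and 0.224 for Nptx2 in the sections labelled trained and untrained. Rheb had 0.0998 and 0.0637, and Rgs2 had 0.0775 and 0.0434, where the medians of all genes tested were 0.0278 and 0.0315. With every spot thinned to 1000 UMIs, Nptx1 kept 0.0923 and 0.0707 and Nptxr 0.0768 and 0.105. Pcdh8 had 0.0235 and 0.0466, whereas Nptx2 had 0.00707, close to the median, in the section labelled trained and 0.0361 in the other. Ptgs2, measured under the label untrained alone, had 0.106 as deposited and 0.05 after thinning. Rgs2 had 0.0253, above Pcdh8, in the section labelled trained and -0.00629 in the other. Rheb had 0.0102 and -0.00686, beside medians of 0.00414 and 0.0027. The authors' deposited values of the same statistic were 0.364 and 0.414 for Nptx1 and 0.105 and 0.101 for Rheb. No order between sections was read from these, as depth differed.

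The share of hippocampal spots with at least 1 UMI was higher under the label untrained for all 7 genes. It was 54.6% (318 of 582 spots) and 90.7% (515 of 568) for Nptxr, and 62.5% and 84.2% for Rheb. At an equal depth of 1000 UMIs, which every hippocampal spot reached, the expected shares were 17.2% and 27.5% for Nptxr, whereas Rheb turned to 19.3% and 13.3%. Nptx1 had 19.8% and 22.3%, and Pcdh8 had 5.11% and 5.01%. White matter, with few neuronal cell bodies, gave 5.75% and 8.6% for Nptxr, 13.9% and 9.62% for Rheb and 1.9% and 3.32% for Rgs2 at that depth. The hippocampal share of Rgs2, 3.66% and 3.31%, was at the white matter level under the label untrained. Ptgs2 had 0.0387% and 0.0218% in white matter against 2.71% and 1.77% in CA3/CA2.

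Between the labels, Rheb was higher and Nptxr lower under the label trained in the hippocampus. Rheb held 260 CPM (1144 UMIs) and 152 CPM (1748 UMIs), a log2 ratio of trained over untrained of 0.77 (0.66 to 0.88). Nptxr held 293 CPM (1289 UMIs) and 446 CPM (5114 UMIs), a log2 ratio of -0.61 (-0.70 to -0.52). These were the only 2 of the 6 genes with at least 400 UMIs in the hippocampus to pass a log2 ratio of 0.5 in either direction. Among 5834 genes tested, 12.9% lay above 0.5 and 6.36% below -0.5, so 1 of 6 on each side was near the background. Rheb had 96.7% of the genes below it and Nptxr 3.58%, and the median of all genes was 0.07.

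The other genes lay closer to 0 in the hippocampus. Nptx1 had 322 and 336 CPM, a log2 ratio of -0.06 (-0.15 to 0.03), and Nptx2 had 26.4 and 31.4 CPM at -0.25 (-0.57 to 0.05). Rgs2 had 40.4 and 37.1 CPM at 0.13 (-0.14 to 0.38), and Pcdh8 had 70.2 and 65.3 CPM at 0.11 (-0.09 to 0.30). The intervals of these 4 genes included 0. Nptx1 moved to -0.34 with spots thinned to 1000 UMIs and to -0.18 (-0.35 to -0.01) on the left side alone, and to 0.04 centred on genes of like GC content. Nptx2 moved to -0.44 with the mean of each spot's CPM, and Rgs2 turned to -0.15 centred on genes of like GC content. Ptgs2, with 16.1 and 11.1 CPM, had a log2 ratio of 0.55 (0.10 to 0.97) on 71 and 127 UMIs, too few to be counted with the others. Its direction was not stable, at 0.21 with the mean of each spot's CPM, 0.20 centred on genes of like GC content and -0.04 with spots thinned to 1000 UMIs.

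Whole sections gave the same pair. Rheb held 239 and 148 CPM (log2 ratio 0.69, 0.65 to 0.74) and Nptxr 165 and 272 CPM (-0.72, -0.77 to -0.68), again 1 of 6 genes on each side, where 11.6% of 11460 genes lay above 0.5 and 6.61% below -0.5. Rgs2 had 54.7 and 40.6 CPM, a log2 ratio of 0.43 (0.34 to 0.52), which was 0.16 centred on genes of like GC content. Its regions above 0 went from 15 to 7 of 18 with that centring. Pcdh8 had 39.2 and 40.7 CPM at -0.05 (-0.16 to 0.05). Nptx1 had 124 and 147 CPM at -0.24 (-0.30 to -0.19), and -0.49 with spots thinned to 1000 UMIs. Nptx2 had 26.1 and 28.5 CPM at -0.13 (-0.26 to -0.01), a direction that turned to 0.25 with spots thinned and 0.07 with the mean of each spot's CPM. Unlike in the hippocampus, the intervals of Nptx1 and Nptx2 excluded 0. Since the sections held different tissue, levels were also weighted to 1 set of 18 regions with at least 30 spots in both, which leaves out cluster 16 and striatum. Rheb then stood at 0.68 and Nptxr at -0.52. Pcdh8 moved to 0.42 and Rgs2 to 0.27, while Nptx1 moved close to 0, at -0.05, and Nptx2 stood at -0.10. Rheb was higher under the label trained in 18 of 18 regions, from 0.28 in cluster 13 to 0.86 in choroid plexus. Nptxr was lower in all but the habenula (0.16) and the region named meninges (0.27).

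**Figure D4:**
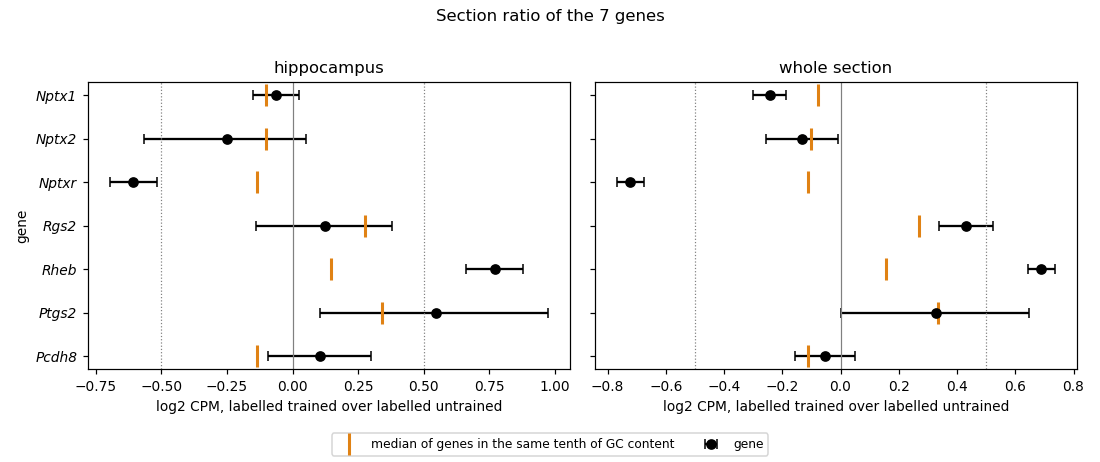
Log2 ratio of CPM, trained over untrained as labelled, for the 7 genes in the hippocampus and the whole section, with 95% intervals for counting error and orange ticks for the median of genes in the same of 10 bins of transcript GC content. Rheb lies above its tick and Nptxr below its tick in both areas.

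The ratios of all genes moved with base composition. Across 5832 hippocampal genes, Spearman's rho between the log2 section ratio and the GC content of the transcript was -0.42, a description across genes, which are not independent replicates. Among 10 equal bins of genes by GC, the lowest in GC had a median of 0.34 and the highest -0.13. The transcripts of Nptxr (59.6% GC) and Rheb (47.1%) lay on the sides of their own shifts. Less the median of its bin, Nptxr was at -0.47 and Rheb at 0.62 in the hippocampus, so that Nptxr no longer passed the limit there, where 7.48% of all genes lay above 0.5 and 6.02% below -0.5 with this centring, and at -0.61 and 0.53 in whole sections. The part of GC content in the difference between the labels was not tested further. White matter markers summed to 1900.9 and 2462.5 CPM in the hippocampus, with 2 of 8 higher under the label trained, and astrocyte markers to 2189.7 and 2026.6 CPM with 5 of 6 higher. Their part in the ratios was not tested.

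**Figure D5:**
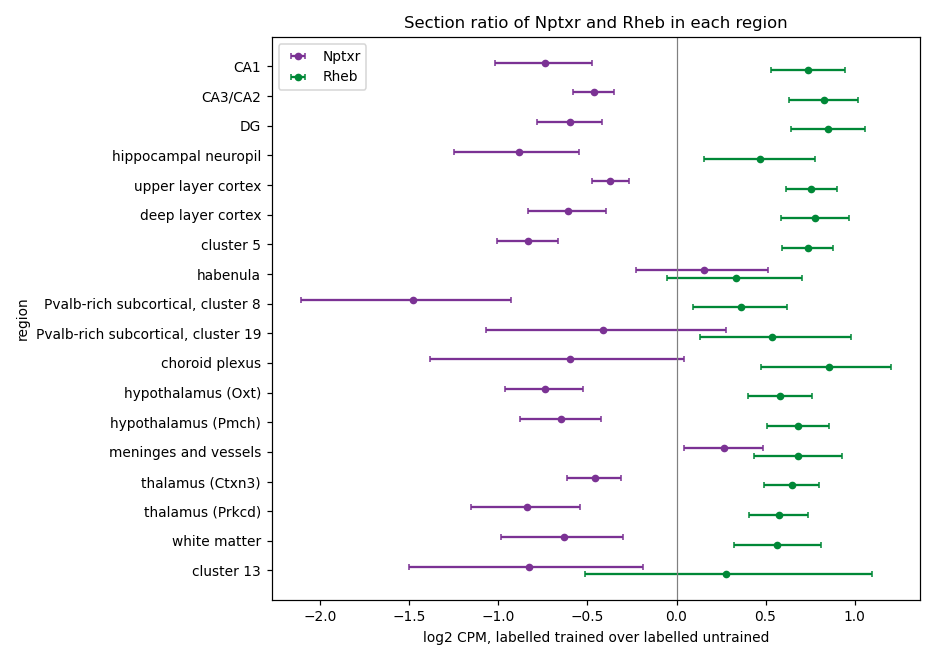
Log2 ratio of CPM, trained over untrained as labelled, of Nptxr and Rheb in each of the 18 regions with at least 30 spots in both sections, with 95% intervals for counting error. Rheb lies above 0 in every region shown, and Nptxr lies below 0 except in the habenula and the region named meninges.

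Both sides of the hippocampus gave the same directions for Rheb and Nptxr, although depth differed between them. Median UMIs per spot were 2918.5 and 11231 on the left and 8033 and 21518 on the right. Rheb was at 0.63 (0.42 to 0.84) on the left and 0.80 (0.67 to 0.93) on the right. Nptxr was at -0.86 (-1.04 to -0.68) and -0.51 (-0.62 to -0.41). Nptx2 had 0.05 (-0.54 to 0.58, 37 and 118 UMIs) on the left and -0.37 (-0.76 to -0.00, 79 and 241 UMIs) on the right. The sides belong to 1 section each and are no replicates. Within the section labelled trained, log2 ratios of left over right were -0.31 (-0.50 to -0.13) for Nptxr, -0.27 (-0.47 to -0.07) for Rheb and -0.21 (-0.39 to -0.04) for Nptx1. Counting error thus does not cover the spread within that section. Under the label untrained they were 0.03 (-0.05 to 0.11), -0.10 (-0.24 to 0.05) and -0.06 (-0.16 to 0.03). Within the cell layers, Nptxr was at -0.47 in CA3/CA2, -0.60 in DG and -0.74 in CA1, and Rheb at 0.83, 0.85 and 0.74.

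Genes that work with the 7 were taken from lists and described in the hippocampus by the same limits. Over all genes these limits were passed by 12.9% above and 6.36% below, and with 4 to 9 genes counted per list nothing particular to a list is read from its counts. Of 14 AMPA receptor and synaptic organiser genes, 5 had at least 400 UMIs, with 1 above 0.5 and 1 below -0.5, and a median log2 ratio of 0.39 beside 0.07 for all genes. Gria2, an AMPA receptor subunit, had 600 and 299 CPM (interval of the log2 ratio 0.93 to 1.08), and Cacng3, an auxiliary subunit, had 37 and 53.2 CPM (-0.52, -0.78 to -0.27). Of 15 mTORC1 genes, 6 were counted, with 1 above, 1 below and a median of -0.10. Eif4e, the cap-binding translation factor downstream of mTORC1, stood at 0.61 (0.46 to 0.75) and Tsc2, which restrains Rheb, at -0.56 (-0.78 to -0.35).

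Of 13 genes of Gq signalling and RGS proteins, 9 were counted, 3 above and 1 below, with a median of -0.07. Grm5, a Gq-coupled glutamate receptor, was at 0.65 (0.52 to 0.79) and Chrm1, a Gq-coupled muscarinic receptor, at -0.65 (-0.81 to -0.49). Of 10 delta protocadherins and partners, 9 were counted, 1 above and 1 below, with a median of 0.19. Cdh2, which encodes N-cadherin, was at 0.51 (0.30 to 0.71), and Taok2, the kinase that acts with Pcdh8 in its removal, was at -0.74 (-1.11 to -0.41). Of 13 prostaglandin genes, 4 were counted, 0 above and 1 below, with a median of -0.18. Ptgds, a prostaglandin D synthase of the meninges, was at -0.60 (-0.66 to -0.53) and Ptges2 at -0.22 (-0.50 to 0.05). Of 10 activity-regulated transcription factors with Arc, 6 were counted, 0 above and 1 below, with a median of -0.02. Junb was at -0.64 (-0.90 to -0.39) and Egr4 at -0.45 (-0.75 to -0.16).

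Arc, the activity-regulated gene whose promoter drives the recombinase in these mice, was used to divide hippocampal spots within each section. At least 1 UMI of Arc was present in 209 of 582 spots under the label trained and in 349 of 568 under the label untrained. Such spots were deeper, with medians of 7877 against 4135 UMIs and of 18232 against 12750 UMIs, and spots are no replicates. Weighted over the layers, 1 of 4 genes with enough UMIs (Nptxr, 0.51) passed a log2 ratio of 0.5 for Arc-positive over Arc-negative spots under the label trained, beside 4.15% of 3835 genes. Under the label untrained 1 of 6 passed (Rgs2, 0.73), beside 20.8% of 7089 genes. The latter weighting rests in CA1 on 3 Arc-negative spots, which held 0 UMIs of Rgs2. Weighted over the layers, Nptxr was at 0.33 under the label untrained, and Nptx1 at 0.28 and 0.15 under the labels trained and untrained. These values lay below the 95th percentile of all genes, which was 0.475 and 0.791.

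In CA3/CA2, Nptxr was higher in the Arc-positive spots, at 681 against 417 CPM over 53 and 45 spots under the label trained (0.71, 0.47 to 0.95), and at 848 against 639 CPM over 91 and 38 spots under the label untrained (0.41, 0.27 to 0.55). Nptx1 had 520 against 373 CPM (0.48, 0.22 to 0.74) and 489 against 366 CPM (0.42, 0.23 to 0.61). Rheb had 282 against 282 CPM and 161 against 149 CPM there. In DG, with 22 against 91 and 64 against 74 spots, Nptxr was at -0.03 (-0.44 to 0.35) and 0.12 (-0.03 to 0.28), and Nptx1 at 0.20 (-0.09 to 0.47) and -0.00 (-0.15 to 0.15). In neuropil, with 61 against 205 and 89 against 93 spots, Nptxr was at -0.22 (-1.03 to 0.49) and 0.15 (-0.16 to 0.47), and Nptx1 at -0.30 (-1.04 to 0.36) and -0.19 (-0.57 to 0.19). In CA1, with 70 against 24 and 101 against 3 spots, Nptxr was at 0.23 (-0.40 to 0.99) and 0.19 (-1.004 to 2.24), and Nptx1 at -0.06 (-0.64 to 0.59) and -0.32 (-1.42 to 1.45). These intervals in DG, neuropil and CA1 included 0, and the difference between layers was not tested. Among the other genes, intervals above 0 within a layer were found in DG alone, for Pcdh8 under the label trained (0.52, 0.02 to 0.996, 52 and 120 UMIs) and for Nptx2 (0.93, 0.27 to 1.64, 56 and 29 UMIs) and Rgs2 (0.57, 0.10 to 1.05, 96 and 64 UMIs) under the label untrained. In the other section Pcdh8 was at 0.22 (-0.06 to 0.50), Nptx2 at -0.06 (-2.24 to 1.47) and Rgs2 at 0.28 (-0.64 to 1.08), intervals that overlapped those before, and the difference between sections was not tested. The Arc-positive spots of CA3/CA2 had medians of 12405 against 9965 UMIs and 27821 against 18005 UMIs, and the part of depth in these values was not tested. No share of all genes was made for single layers, so nothing particular to a gene or a layer is read from the intervals given here.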

How the data were processed

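Visium libraries of 2 coronal sections, 1 per group, were analysed. Per the methods, the authors aligned reads to mm10 with Space Ranger 2.0.0, and they deposited UMI counts per gene and spot, unnormalized, with a table per section holding a score, Moran's I, for each gene. Gene totals of that table equalled those of the matrix for all 20513 and 21498 genes listed.

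Spots of at least 500 UMIs were clustered jointly (Leiden, resolution 1.5) on 1817 variable genes without the 7 genes, the listed pathway genes or activity-regulated genes, and named from marker genes. The hippocampus was outlined from its cell layer and neuropil clusters. Counts were pooled per region and scaled to CPM, with exact Poisson, Clopper-Pearson and conditional binomial intervals at 95%. Ratios took a pseudocount of 0.5 UMI. With 1 section per group no test was possible. Section ratios were counted past 0.5 (log2) for genes with at least 400 UMIs over both sections, and region ratios past 1 for genes with at least 200 UMIs in the section. The genes named were all 7, the 3 nearest in pattern to each (1 is not reported here), and the 2 of each pathway list with the largest section ratio. The 7 genes and the lists were chosen with earlier results of these data known. The sections shared 3448 barcodes, which mark slide positions. Statistics were tested on simulated data. Clustering ran in leidenalg 0.10.2 with igraph 0.11.9, and intervals were computed in scipy 1.17.1 (Python 3.11.15).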

Additional observations from a re-analysis of the deposited data

How the results depend on the processing

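Of 108 checks of the main counts and shares under other settings, 95 stayed within 1.5 times the value reported, and of 219 checks of values of single genes 141 moved by less than their counting interval, 78 moved further and 0 changed sign as called values. Of 42 checks of a gene's count of regions, 37 stayed within 1.5 times. In the hippocampus Nptxr ranged from -0.86 (left side alone) to -0.47 and Rheb from 0.61 to 0.80. Centring on genes of like GC content, chosen after seeing the data, took the genes below -0.5 in the hippocampus from 1 to 0, beside 6.02% of all genes, and left 1 above 0.5, beside 7.48%. The weighting over regions, the division by Arc and the other clustering resolutions for the leading named regions, which were the same for 7 of 7 genes, were also chosen after seeing the data. With the mean of each spot's CPM, the genes above 1 became 1 in CA1 (beside 6.29% of all genes) and 2 in upper layer cortex (4.76%) under the label trained, and 2 in upper layer cortex (3.3%) under the label untrained. With spots thinned to 1000 UMIs they became 1 in CA1 in both sections (17.7% and 17.5%), 2 in upper layer cortex (12.5%) and 2 in habenula (22.5%) under the label untrained, so thinning raised the share of all genes as well. The cause was not tested. With a minimum of 50 UMIs, the share of all genes above 1 in the habenula was 13.1% and 8.05%. Genes with the higher share of spots under the label untrained fell from 7 to 4 in a seeded draw to 1000 UMIs and to 3 in expectation. Genes with a Moran's I above 90% of all genes fell from 4 to 2 under the label trained after thinning and rose from 4 to 5 under the label untrained. No paired analysis was possible because each group holds 1 sample. Ptgs2 had the fewest UMIs of the 7 genes, with 133 and 212 over the whole sections labelled trained and untrained.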
